A study of Mus musculus with 8 samples.

Results

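Pcp4, Gprc5c, Plpp3, Ebf3 and Mdga1 were the 5 genes with the largest rise in AtT20 cells incubated with HX630, among the genes whose probe could be measured on every array. AtT20 is a mouse pituitary tumor cell line of the corticotroph type, which makes pro-opiomelanocortin (Pomc) and secretes ACTH, and HX630 is a synthetic pan-agonist of the retinoid X receptors (RXR). RNA was taken from 4 control samples, incubated without the agonist, and from 4 samples incubated with 10 μM HX630, both for 48 hr in medium with stripped serum, and each sample was hybridized to a 1-color Agilent mouse array. This is 1 cell line, 1 agonist, 1 dose and 1 time, and the labels do not say whether samples of a group came from separate cultures, so p-values measure only the spread between these samples.

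The members were chosen by the difference between HX630 and control on these same arrays, so that difference is given for them as a description, without a test. A gene was represented by its brightest tested probe, and the rank was taken over the 1150 genes called up that were well above background on all 8 arrays and had no overlap between the groups. The 5 genes have 9 probes among the 39429 on the array and are 5 of the 15315 genes tested. Signals are log2 values of the processed intensity, each less its array's 75th percentile, so that 0 is the level that 75% of the probes do not exceed. Intensities, where printed, are not scaled in this way and also carry differences in brightness between arrays. Their ratios therefore differ from the folds given. Because probes differ in how strongly they bind, signals were compared between arrays for 1 probe and not between probes.

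RXRs are nuclear receptors that bind DNA as homodimers, or as partners of other receptors such as the retinoic acid receptors, PPAR and LXR, at pairs of a short half-site whose usual letters are AGGTCA. An agonist of RXR can switch on the homodimer and the permissive pairs, and target genes are then transcribed more or less. The 5 genes belong to unlike families. Pcp4 encodes a small protein that binds calmodulin and changes how fast it takes up and releases calcium. Gprc5c encodes an orphan receptor of the class C family, in the branch named after a member induced by retinoic acid. Plpp3 encodes a membrane phosphatase that removes the phosphate from lysophosphatidic acid and sphingosine 1-phosphate at the cell surface. Ebf3 encodes a transcription factor of the early B-cell factor family, known for its part in neuronal differentiation. Mdga1 encodes a membrane-anchored protein with immunoglobulin domains that binds neuroligins and keeps them from neurexins at synapses.

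A promoter sequence was given in the RefSeq table for 4 of the 5 genes. The 250 bases before the start of Pcp4, Ebf3 and Mdga1 (assembly GRCm38.p6) are shown because they hold the half-site or the Ebf core, which stand in capitals. They are printed 5′ to 3′ on the strand of the gene. The GC box (GGGCGG), also searched for, is not marked. For Pcp4 (chr16:96467356-96467605, plus strand) the capitals mark the half-site AGGTCA on the opposite strand. For Ebf3 (chr7:137314446-137314695, minus strand) and Mdga1 (chr17:29887883-29888132, minus strand) they mark CCCNNGGG, the core that factors of the Ebf family bind.
Pcp4: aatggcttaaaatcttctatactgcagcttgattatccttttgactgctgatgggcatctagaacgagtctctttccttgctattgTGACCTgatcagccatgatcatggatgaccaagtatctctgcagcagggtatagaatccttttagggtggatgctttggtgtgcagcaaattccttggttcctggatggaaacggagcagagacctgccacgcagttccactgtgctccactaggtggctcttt
Ebf3: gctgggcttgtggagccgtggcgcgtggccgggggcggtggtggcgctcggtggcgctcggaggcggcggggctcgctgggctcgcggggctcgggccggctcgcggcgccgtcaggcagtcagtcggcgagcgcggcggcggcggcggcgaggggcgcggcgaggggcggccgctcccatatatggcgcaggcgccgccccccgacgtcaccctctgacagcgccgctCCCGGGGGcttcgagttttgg
Mdga1: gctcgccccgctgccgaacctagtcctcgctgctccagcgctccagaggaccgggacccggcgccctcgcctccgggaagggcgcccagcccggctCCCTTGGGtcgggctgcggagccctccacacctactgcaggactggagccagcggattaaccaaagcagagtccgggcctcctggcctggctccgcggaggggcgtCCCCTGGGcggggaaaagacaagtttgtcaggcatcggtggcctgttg

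The half-site was found, on either strand, in 1 of the 4 promoters, that of Pcp4, where it lies 164 to 159 bases before the start. It is held by 14% of all 32851 promoters of this length in the table. The core CCCNNGGG, which reads the same on both strands, was found in 2 of the 4, those of Ebf3 (21 to 14 bases before the start) and Mdga1 (154 to 147 and 48 to 41 bases before the start), against 11.8% of all promoters. Direct repeats of the exact half-site spaced by 1 to 5 bases were found in 0 of the 4, and such repeats are held by 0.00609% to 0.0335% of all promoters. The GC box GGGCGG stood in the promoters of Ebf3 and Mdga1, against 32.7% of all promoters, and TATAAA in 0 of the 4, against 12.4%. In Mdga1 the GC box overlaps the core nearer the start. The promoters also differ in base composition, and the fixed letters of the core and of the GC box are all G or C. The part of composition in these matches was not tested. That of Ebf3 is 80% G and C with 43 CpG, that of Mdga1 70.4% with 21 CpG, that of Pcp4 46.8% with 3 CpG and that of Plpp3 42.4% with 6 CpG, where the median of all promoters is 52.4% G and C. These are matches of letters in a short window and say nothing about binding.

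Pcp4 had the largest difference of the 5. Its signal was -2.15, -2.01, -2.09 and -2.09 on control arrays 1 to 4, and 1.77, 1.96, 1.98 and 1.94 on HX630 arrays 1 to 4. All HX630 signals lie above the 75th percentile of their array, and all control signals lie below it. The mean went from -2.08 ± 0.060 to 1.91 ± 0.095 (SD, n = 4 each), a log2 difference of 4.00 (SE 0.057) or 15.95-fold, and the nearest arrays of the groups are 3.78 apart on the log2 scale. The mean processed intensity was 368 in control and 6952 with HX630. More RNA per cell and more cells that make the transcript cannot be told apart in such samples, here and for the other genes.

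Gprc5c is covered by 4 probes, from 2 transcript records. The probe that stood for the gene (A_55_P2017694) was at -3.45, -3.92, -3.83 and -3.88 in control and at -0.40, -0.20, -0.29 and -0.35 with HX630, a log2 difference of 3.46 (SE 0.108) or 11.0-fold. Control array 1 lies above the other control arrays, and the HX630 arrays lie well clear of all 4. The other probe of the same record (A_55_P1968370) gave -3.45, -3.58, -3.52 and -3.47 in control and -0.74, -0.43, -0.55 and -0.60 with HX630, a log2 difference of 2.93 (SE 0.067) or 7.60-fold. The probes of the other record lay nearer to background, with mean control intensities of 25.3 and 21.3, and their differences were smaller. Probe A_51_P309988 was at -5.34, -6.16, -6.13 and -6.21 in control and at -3.97, -3.90, -4.15 and -4.21 with HX630, a log2 difference of 1.90 (SE 0.198) or 3.74-fold. Probe A_55_P2017689 was at -5.59, -5.95, -6.55 and -6.74 in control and at -4.84, -4.87, -4.86 and -5.10 with HX630, a log2 difference of 1.29 (SE 0.243) or 2.45-fold. None of the 4 probes had an overlap between the groups, but they do not give 1 size. The part of the nearness to background in this was not tested.

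Plpp3, named Ppap2b in older annotation, has 1 probe. It was at -3.35, -3.52, -3.41 and -3.52 in control and at -0.16, 0.01, -0.07 and -0.03 with HX630. The HX630 arrays thus lie close to the 75th percentile, and the groups are 3.19 apart at their nearest. The mean went from -3.45 ± 0.084 to -0.06 ± 0.074 (SD, n = 4 each), a log2 difference of 3.39 (SE 0.057) or 10.5-fold, with mean intensities of 143 and 1770.

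Ebf3 has 1 probe, with a mean intensity of 70.3 in control and 757 with HX630. Its signal was -4.27, -4.58, -4.45 and -4.59 in control and -1.26, -1.26, -1.40 and -1.22 with HX630. All 8 signals were well above background, and no HX630 array came within 2.87 of a control array. The log2 difference was 3.19 (SE 0.079), or 9.10-fold, and it was 2.53 with another background correction (normexp).

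Mdga1 has 2 probes that do not give the same picture. The bright probe (A_55_P2184339) was at -2.24, -2.46, -2.35 and -2.40 in control and at 0.73, 0.84, 0.85 and 0.69 with HX630, a log2 difference of 3.14 (SE 0.062) or 8.81-fold, with mean intensities of 304 and 3164. The dim probe (A_55_P2078163), of the same transcript record, was at -6.15, -6.42, -6.33 and -6.65 in control and at -5.81, -6.06, -6.24 and -6.49 with HX630. These groups overlap, with a log2 difference of 0.24 (95% confidence interval -0.13 to 0.61), and the probe was well above background on 3 control arrays and 4 HX630 arrays. The lowest signal called well above background lay between -6.34 and -7.22 on the 8 arrays, so the dim probe sat near the limit of measurement, and its sign turned to -0.29 with another background correction (normexp).

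**Figure D1:**
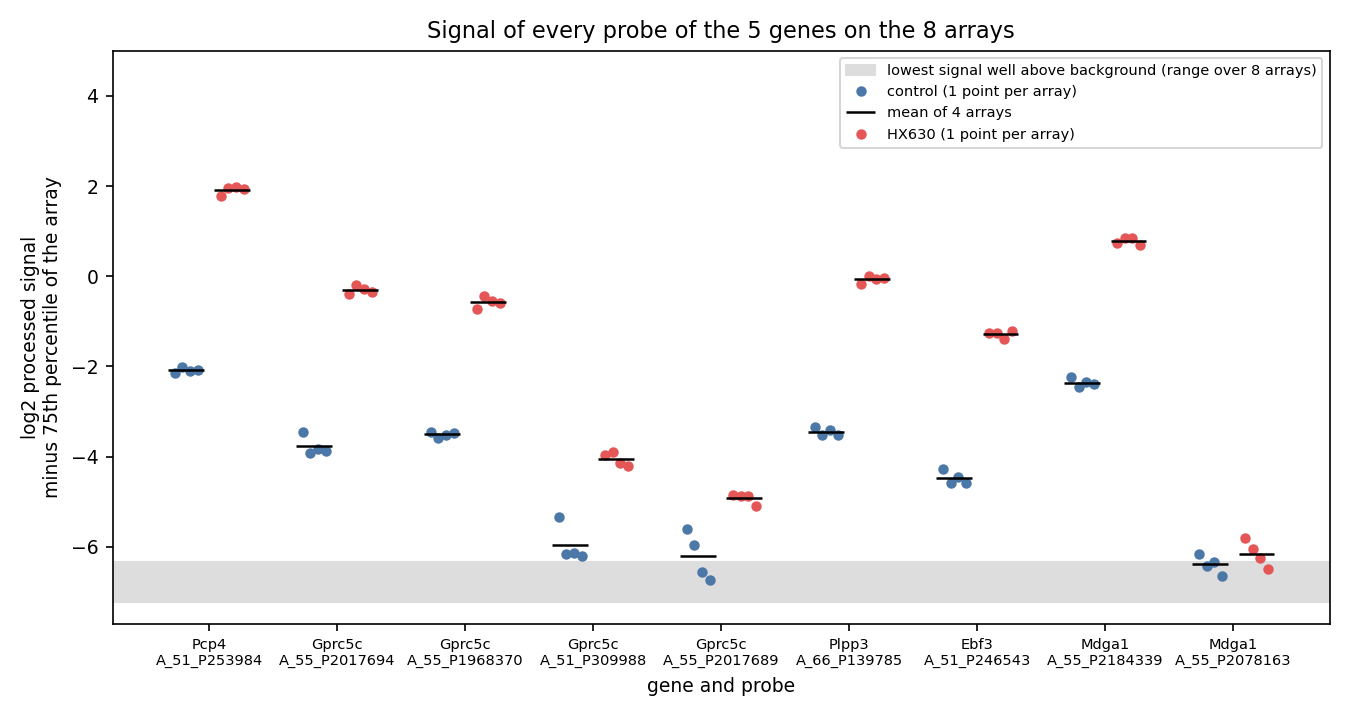
Signal of the 9 probes of the 5 genes on each array (log2 processed intensity less the array's 75th percentile, vertical axis), with 4 control points, 4 HX630 points and the mean of each group as a line. The gray band spans the lowest signals called well above background on the 8 arrays, from -7.22 to -6.34, and the groups overlap only for the dim probe of Mdga1.

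In all, 8 of the 9 probes were called up (adjusted p under 0.01 with over 1.5-fold change) and had HX630 arrays all above the control arrays. With normexp the dim Gprc5c probe A_55_P2017689 was at 0.27, below the fold change threshold, and lost its call. Of the 28548 probes tested, 7.46% were called up, and 24.4% had HX630 arrays all above the control arrays. Since the members were picked on this contrast, their counts carry no further weight. Calls over all probes were 2131 up and 3184 down, so 40.1% were up, and this share depended on the scaling: it was 51.6% when arrays were scaled on their median and 69.9% when they were scaled on spike-in control probes. The latter shifted the median log2 difference of all probes by 0.23, from -0.06 to 0.18, and every difference with it.

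The slide cannot be told apart from the treatment. All 4 control arrays lie on 1 slide with 1 scan, and all 4 HX630 arrays on another. The 75th percentile of the intensity was 1335 to 1863 in control and 1803 to 1899 with HX630, 69.7% to 73.5% of the probes were well above background, and arrays correlated at 0.994 to 0.998 within groups and at 0.978 to 0.984 between them. Of 5 corticotroph markers, 5 were above background on all arrays. Pomc (log2 difference -0.45) and Tbx19 (-0.37) had all HX630 arrays below the control arrays but were not called, as the differences were under the fold change threshold. Pcsk1 fell by 2.06, and Neurod1 (0.72) and Crhr1 (1.11) rose. The summed intensity of the 5 was 482144 to 567392 in control and 383973 to 406855 with HX630. Of 7 markers of other pituitary lineages, 3 were above background on all arrays, Prl and Tshb were above it on none, and Gh, growth hormone, fell by 0.79 (SE 0.116, adjusted p = 6.1e-04), the 1 call in this list. Because several of the 5 genes are best known from neurons, neuronal markers are given beside them. Of 9, 8 were above background on all arrays, 3 were called up (Gad1, Map2 and Syt1) and 3 down (Nefm, Nefl and Rbfox3), with a summed intensity of 36965 to 53941 in control and 50224 to 54302 with HX630. Of 5 markers of the cerebellar Purkinje cell, for which Pcp4 is named, 3 were above background on all arrays, 1 was called up and Calb1 was above background on no array, with a summed intensity of 1772 to 2443 in control and 1977 to 2082 with HX630. Of markers of fibroblasts, endothelium and leukocytes, 2 of 5, 2 of 4 and 3 of 3 on the array were above background on all arrays, with 1, 0 and 0 called up and 0, 1 and 2 called down. Their summed intensities in control and with HX630 were 134 to 166 and 198 to 261 for fibroblasts, 4433 to 5045 and 4086 to 4755 for endothelium, and 4281 to 5484 and 2396 to 2636 for leukocytes. All marker sums given here are of intensities not scaled by array, so they carry the differences in the 75th percentile. Of the fibroblast markers, 2 of 5 were above background on no array. Before scaling, the sum of the leukocyte markers was lower and that of the fibroblast markers higher with HX630, with no overlap. The part of any of these in the result was not tested.

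The rank itself rests on the filter for measurable probes. Over all 15315 genes tested, Pcp4 ranked 2, Gprc5c 4, Plpp3 6, Ebf3 9 and Mdga1 11. The 6 other genes with a larger rise than Mdga1 were Slc38a5, Rtn4r, Il17rd, Epb42, Actc1 and Vegfd, and each was above background on at most 2 of the 4 control arrays. The first of them, Slc38a5, ranked 1 with a log2 difference of 4.08, above all 5 members. Slc38a5, a glutamine transporter, was above background on 0 control arrays and 4 HX630 arrays, and was at least 15.1-fold higher with HX630. For Actc1 and Vegfd, also below background on all control arrays, the bounds were only at least 2.31-fold and at least 3.78-fold.

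Just outside the 5 stood Podxl, which encodes a sialomucin of the cell surface. It was at -4.87, -4.87, -4.91 and -4.97 in control and at -1.75, -1.82, -1.96 and -1.99 with HX630, a log2 difference of 3.03 or 8.15-fold, against 3.14 for Mdga1 just inside. Klk1b16 (2.87), a kallikrein with near-identical relatives that its probe may also bind, Nrxn3 (2.83), Ramp2 (2.75) and Hpca (2.75) followed. As a description, intervals of 1 standard error overlapped between Gprc5c and Plpp3, between Ebf3 and Mdga1 and between Mdga1 and Podxl. They did not overlap between Pcp4 and Gprc5c or between Plpp3 and Ebf3.

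**Figure D2:**
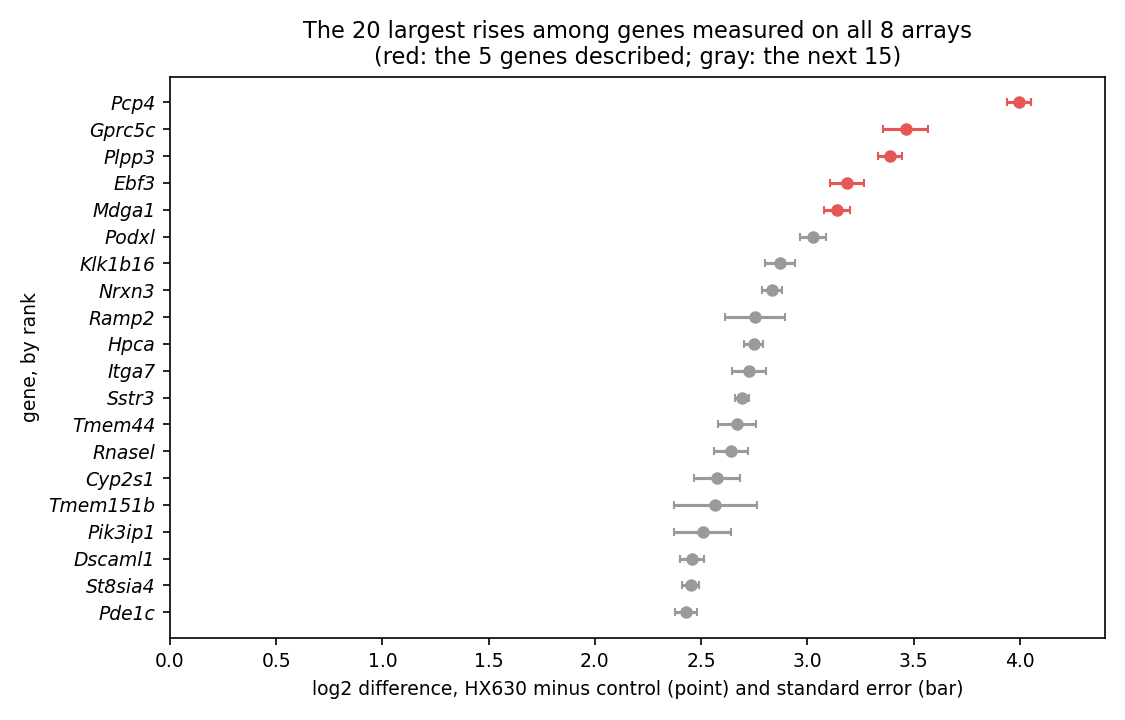
The 20 genes with the largest rise that could be measured on all 8 arrays, in order, as the log2 difference of HX630 minus control (point, horizontal axis) with its standard error (bar). Pcp4 at 4.00 stands apart, and the other 4 members, from 3.46 to 3.14, run on into Podxl at 3.03 and the genes below it.

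The probe A_55_P1968370 of Gprc5c had almost the same mean signal over the 8 arrays as the one chosen, -2.04 for both, and would put the gene at rank 6. Without any 1 of the HX630 arrays it became the brighter, and Gprc5c left the first 5 for Podxl. When all tested probes of a gene were averaged, Gprc5c ranked 21 and Mdga1 80, and Podxl and Nrxn3 entered.

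Within the groups the 5 genes did not vary alike. After the group means were taken out, signals of Gprc5c, Plpp3, Ebf3 and Mdga1 on the 8 arrays correlated at 0.40 to 0.85 in their pairs, and those of Pcp4 with the other 4 at -0.54 to 0.14. Control array 1 was the highest control array for 8 of the 9 probes and the lowest for Pcp4. These correlations are over 8 arrays that share their scaling, and are given without a test.

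The genes most like each member over the 8 arrays were also listed, among 14301 genes, by Pearson correlation of the signal. For Pcp4 these were Zfp41, Lrrc56 and Nsdhl, the last an enzyme of cholesterol synthesis. For Gprc5c they were Luzp4, Kif24 and Slc25a35, and for Ebf3 Tmtc4, Kcnn2, a calcium-activated potassium channel, and Alox5ap. For Plpp3 they were Hpca, a neuronal calcium sensor, Sstr3, a somatostatin receptor, and Syn2, a synapsin of synaptic vesicles. For Mdga1 they were Cped1, Sstr3 and Slc18a1, a vesicular monoamine transporter. All these correlations were 0.9992 to 0.9999, but each member had 696 to 734 genes above 0.99, since any gene with tight groups and a rise comes close to 1.

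Genes related to each member by family or by function were counted in a list of their own. Over all 15315 genes tested, by the brightest probe, 8.38% were called up and 11.2% down, with a median log2 difference of -0.03. The list of calmodulin, its small binding proteins and its kinase and phosphatase targets held 23 genes, of which 21 were tested, 3 were called up, 2 down and 16 not called, with a median of 0.05. Gap43, a growth cone protein that like Pcp4 binds calmodulin through an IQ motif, was at -1.28, -1.07, -0.99 and -1.09 in control and at 0.32, 0.66, 0.76 and 0.62 with HX630, and rose by 1.69 (SE 0.103, adjusted p = 4.9e-06). Nrgn, the neuronal protein neurogranin with the same kind of motif, was at -2.58, -2.91, -2.997 and -3.03 in control and at -3.45, -3.61, -3.66 and -4.05 with HX630, and fell by 0.81 (SE 0.147, adjusted p = 0.0020). The 2 thus moved in opposite directions, with no overlap of the groups in either. Rcan3, a calcineurin regulator, rose by 0.67, Camkk2, an upstream kinase of the calmodulin-dependent kinases, rose by 0.65, and the kinase subunit Camk2d fell by 0.80. With spike-in scaling neither Nrgn (-0.58) nor Camk2d (-0.57) was called. Pcp4l1, the closest relative of Pcp4, was above background on 0 of the 8 arrays, and the calmodulin genes Calm2 (0.38) and Calm3 (0.42) were not called, though a dimmer probe of Calm3 (0.88) was.

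Of 18 other class C receptors, the family of Gprc5c, 14 were tested, with 1 called up, 1 down, 12 not called and a median of -0.24. Gprc5b, of the same branch as Gprc5c, was at 0.12, -0.04, -0.01 and 0.02 in control and at 0.80, 0.71, 0.65 and 0.71 with HX630, and rose by 0.70 (SE 0.049, adjusted p = 1.1e-05). Its second probe differed by 0.26 and was not called. Gprc5a, the member of the branch first described as induced by retinoic acid, was at -0.95, -1.69, -1.93 and -1.97 in control and at -1.52, -1.63, -1.74 and -1.85 with HX630. Its groups overlap, with a log2 difference of -0.05 (95% confidence interval -0.57 to 0.46), and the difference was 0.17 without control array 1 and 0.178 with spike-in scaling. Gprc5d was at -0.32 and not called. Casr, the calcium-sensing receptor, fell by 1.05 (SE 0.060, adjusted p = 3.5e-06), from signals of 1.00 to 1.16 in control to signals of -0.03 to 0.18 with HX630.

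Of 29 genes of lipid phosphates besides Plpp3 (phosphatases, their relatives, the enzymes that make and break sphingosine 1-phosphate, and the receptors), 22 were tested, with 2 called up, 3 down, 17 not called and a median of -0.21. The genes called up were Plppr3 and Plppr1, of the Plppr branch, whose proteins resemble the phosphatases but lack most of the catalytic residues. The other genes of this branch were not called, at 0.40 for Plppr2 and -0.27 for Plppr4, and Plppr5 was above background on no array. Plppr3 was at -4.04, -3.78, -3.93 and -3.97 in control and at -1.79, -1.66, -1.54 and -1.59 with HX630, and rose by 2.28 (SE 0.074, adjusted p = 2.8e-07). Plppr1 rose by 1.56 (SE 0.196, adjusted p = 2.8e-04) by a probe that was above background on 1 control array, and was not called with normexp (0.42), while its other probe, above background on no control array, was at least 6.44-fold higher, though with normexp its log2 difference was only 1.28, below that bound. Of the Plpp genes themselves, the relatives of Plpp3 that act as phosphatases, none of those tested was called up. Plpp2 fell by 0.64 (SE 0.045, adjusted p = 1.1e-05), a call lost when arrays were scaled on their median or on spike-in probes or corrected with normexp, and Plpp1 (-0.37), Plpp5 (-0.40), Plpp6 (0.27) and Plpp7 (-0.38) were not called. Plpp4 was above background on 2 control arrays and no HX630 array and was not tested. Lpar1, a receptor for lysophosphatidic acid, fell by 1.52 (SE 0.190, adjusted p = 2.7e-04), and Spns2, an exporter of sphingosine 1-phosphate, fell by 1.05 (SE 0.030, adjusted p = 2.0e-07).

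Of the 5 genes listed with Ebf3 (the other Ebf factors and the zinc finger proteins Zfp423 and Zfp521, which bind Ebf factors), 3 were tested, with 1 called up, 0 down and a median of 0.52. Zfp521 was at -3.75, -3.80, -3.85 and -3.76 in control and at -2.48, -2.55, -2.46 and -2.51 with HX630, and rose by 1.29 (SE 0.038, adjusted p = 2.1e-07). Ebf4 differed by 0.52, with no overlap of the groups, just under the fold change threshold, and was called when arrays were scaled on their median or on spike-in probes. Zfp423 differed by -0.21, or 0.018 with spike-in scaling, and was not called. Ebf1 was above background on no array. Ebf2 was above background on 3 control arrays and on no HX630 array, and was not tested.

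Of 30 genes of synaptic adhesion besides Mdga1, 29 are on the array and 15 were tested, with 5 called up, 1 down, 9 not called and a median of 0.08. Nrxn3, a neurexin and so a presynaptic partner of the neuroligins, was at -3.66, -3.81, -3.84 and -3.70 in control and at -0.95, -0.93, -0.91 and -0.88 with HX630, and rose by 2.83 (SE 0.048, adjusted p = 5.7e-08), and its 4 probes were all called, with log2 differences of 2.42 to 3.83. The largest of these is of a probe above background on no control array, for which the bound was at least 3.62-fold. With normexp its log2 difference was only 0.84, below that bound, and it was not called. Nrxn2 differed by 0.00 and was not called. Of the neuroligins, which Mdga1 binds, Nlgn3 rose by 0.64 (SE 0.072, adjusted p = 1.4e-04) by its brighter probe, not called with normexp (0.40), while its dimmer probe was at -0.24 and not called. Nlgn2 differed by 0.52 and was not called, but was with median, quantile or spike-in scaling, and Nlgn1 was above background on 1 HX630 array and no control array and was not tested. Mdga2, the other gene of the Mdga family, differed by -0.46 and was not called. The receptor phosphatase Ptprf rose by 1.22 (SE 0.030, adjusted p = 1.2e-07) and Lrrc4b, a postsynaptic partner of such phosphatases, by 0.73. Slitrk4 fell by 0.81 (SE 0.199, adjusted p = 0.0088), a call lost without any 1 of 7 arrays.

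**Figure D3:**
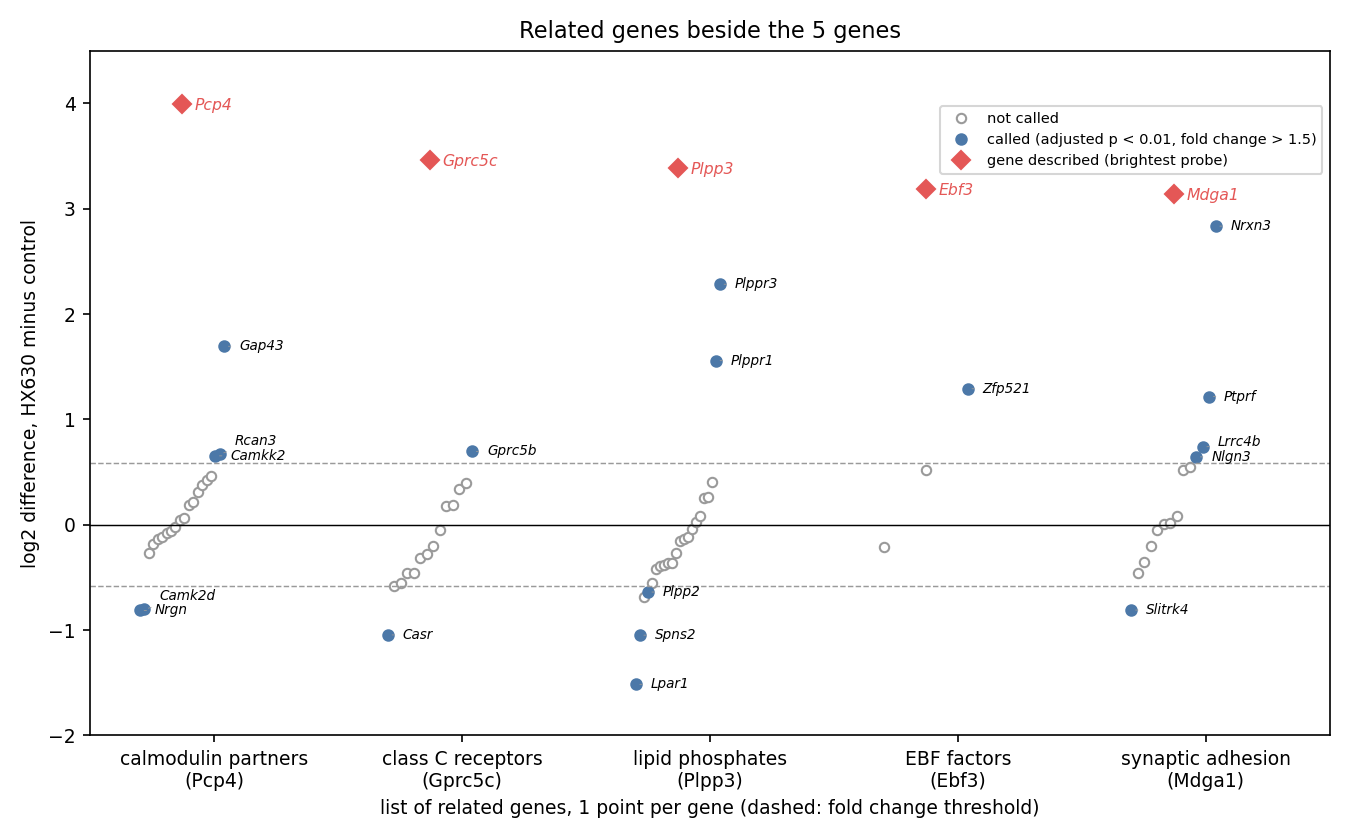
Log2 difference of HX630 minus control (vertical axis) for the tested genes of the 5 lists reported here, each by its brightest probe, with the 5 members as diamonds, called genes filled and named, and other genes open. The members lie highest because they were chosen as the largest rises, and most genes of the lists lie between the dashed lines of the fold change threshold.

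The differences of the 5 genes were also set against other ways of processing. Over all of them, the log2 difference lay at 3.97 to 4.23 for Pcp4, 3.103 to 3.69 for the brightest Gprc5c probe, 2.97 to 3.62 for Plpp3, 2.53 to 3.42 for Ebf3 and 3.03 to 3.37 for the bright Mdga1 probe. The highest values came from spike-in scaling. The lowest came from normexp, except for Pcp4, where leaving out HX630 array 3 gave it. The normexp correction took Ebf3 to rank 8, with Hpca in the first 5. With it the differences of the Gprc5c probes nearest to background went from 1.90 to 0.97 and from 1.29 to 0.27.

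**Figure D4:**
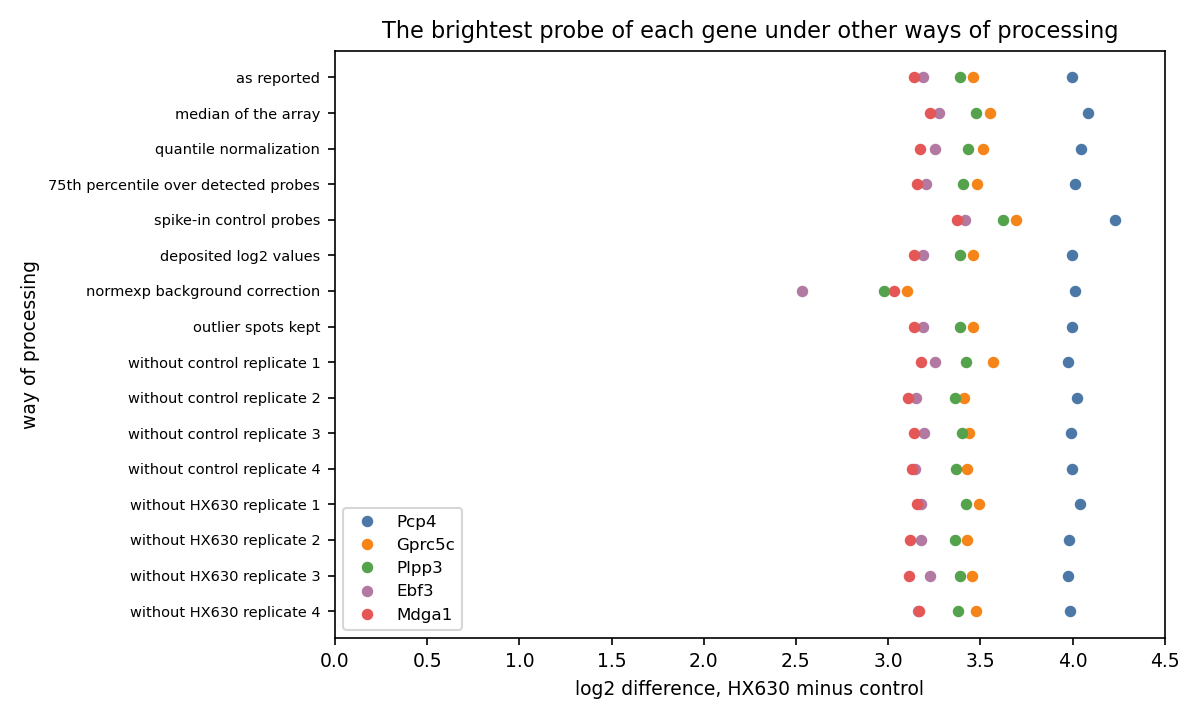
Log2 difference of HX630 minus control (horizontal axis) for the brightest probe of each of the 5 genes as reported and under 15 other ways of processing (vertical axis), 1 point per gene. Pcp4 lies highest throughout, at 3.97 to 4.23, and Ebf3 moves most, to 2.53 with the normexp background correction.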

How the data were processed

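From every array the authors deposited Agilent Feature Extraction 10.7.3.1 output, which gives each spot a processed intensity after background subtraction, and the median intensity of the spot and of its local background as scanned. A deposited matrix of log2 values equals the log2 processed intensity less the array's 75th percentile within 0.02 for 100% of the probes, and was used as an alternative. The study tested in GeneSpring, at thresholds of 1.5 for the fold change and 0.01 for p.

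R 4.3.3 and limma 3.58.1 were used. After removal of 1377 control spots and of outlier spots, repeated spots were averaged to 39429 probes. Of these, 26055 (66.1%) took a name through their RefSeq accession from a table of GRCm38.p6, used for names only. Testing needed a signal well above background on 4 or more arrays, and left 28548 probes. HX630 was compared with control by lmFit and eBayes, without covariates and with Benjamini-Hochberg adjustment over all tested probes, and calls were made at the study's thresholds on the adjusted p. The tested probe with the highest mean signal stood for its gene. Where a probe was below background on all arrays of a group, a bound on the fold is given, set by the lowest signal well above background on each array. Such a bound applies to the signals as processed here, and normexp gave smaller differences for the probes of Plppr1 and Nrxn3. The code was tested on simulated data.

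The 5 genes and the gene lists were chosen with earlier results of these data known. Named genes are the members, the next 5 of the rank, close relatives and the largest called changes of each list, and the 3 genes most correlated with each member. Camkk2, Lrrc4b, Calm2, Calm3, Nrxn2, Plppr2, Plppr4, Plppr5, the marker genes and the 6 other genes with a larger rise than Mdga1 were named after their values were seen. Some genes counted in the lists are not reported here by name. The number of arrays limits the precision. Deviations of same-numbered samples correlated at 0.52, -0.01, 0.24 and 0.38, so the numbers were not taken to pair the samples.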

Additional observations from a re-analysis of the deposited data

Results flagged for a closer look

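Of 106 groups of 4 arrays checked for the members and the named genes, 5 had 1 array set apart from the other 3, where chance sets apart about 1 group in 20. The value given is the gap to the nearest other array as a share of the range of the group. For Gprc5c, the dim probe A_51_P309988 had control array 1 above the others (0.912), and the dim probe A_55_P2017689 had HX630 array 4 below the others (0.882). Control array 1 was also set apart for Rcan3 (0.889), Luzp4 (0.853) and Kif24 (0.885). The last 2 were listed because their signals follow those of Gprc5c over the arrays, so they are not independent of its control array 1.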

How the results depend on the processing

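Every member probe but the dim probe of Mdga1 kept its direction under all alternatives tried. The probes called up were 4343 with spike-in scaling, 1355 with normexp and 755 at a fold change of 2, and the probes called down were 1873 with spike-in scaling and 1277 at a fold change of 2. Without 1 array they were 1847 to 2566 up and 2783 to 3369 down. Of the members, 3 stood in the first 5 when all probes of a gene were averaged, an alternative added after seeing the data, and 4 to 5 without 1 array. Calmodulin genes called up were 5 and called down 0 with spike-in scaling, and 1 and 0 at a fold change of 2. Class C receptors called up were 2 with spike-in scaling, 0 at a fold change of 2 and 0 with averaged probes, which called 3 down. Lipid phosphate genes called up were 1 with normexp and 1 among probes above background on all arrays. Genes of the Ebf list called up were 2 with median scaling and 2 with spike-in scaling. Synaptic adhesion genes called up were 2 at a fold change of 2, and 0 were called down with spike-in scaling, normexp, no filter, the methods' t-test or a fold change of 2. Without 1 array, called up and down were 3 to 4 and 2 for calmodulin, 1 and 1 to 2 for class C receptors, 2 and 3 to 4 for lipid phosphates, 1 and 0 for the Ebf list, and 5 to 6 and 0 to 1 for synaptic adhesion. The log2 difference of Gprc5a, not called, turned to 0.034 with median scaling and 0.178 with spike-in scaling and ran from -0.17 to 0.17 when 1 array was left out (0.17 without control array 1, 0.0019 without HX630 array 4), and that of Zfp423, not called, to 0.018 with spike-in scaling. The cause was not tested where the alternative does not itself show it. With the replicate number as a block, the probes called up were 2209 and the probes called down 3345, the 5 members stayed the first 5, and no count of the lists moved by over 1.5 times. The samples share only a number, and in 2 of the 4 pairs both arrays correlated best with their own number. Probes near background on control arrays, among them the dim probes of Gprc5c and Mdga1, give the least certain sizes.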
